A study of Vulpes lagopus with 12 samples.

Results

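The collagens and laminins, the main fibre and sheet proteins of the extracellular matrix, were followed in blood RNA of the Arctic fox (Vulpes lagopus). Members were all probe sets whose only gene symbol in the probe annotation was a collagen chain or a laminin alpha, beta or gamma chain. This gave 130 of the 42924 probe sets tested, standing for 46 of 15115 genes. Of these, 97 probe sets belonged to 36 collagen genes and 33 to 10 laminin genes. A probe set that carried COL25A1 beside a second symbol was left out. All 46 symbols also stand in the annotation of the Arctic fox genome.

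The series asked whether fox blood cells held polychlorinated biphenyls, persistent industrial pollutants, or mercury, a toxic metal. It holds 12 arrays of a design made against the dog: 11 of foxes, numbered here in the order of the series, and 1 titled a canine control. Age, strain, treatment and contaminant load of single foxes are not in the labels, so the foxes form 1 group. The control array carries the same organism, tissue and source labels as the foxes, and the sources used here say nothing more of the RNA it held.

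Collagens are built of 3 chains wound into a helix, and the genes for these chains differ in what the assembled protein forms. Fibrillar collagens make the rope-like fibres of skin, bone, tendon and vessel wall, and type IV collagens make the meshwork of the basement membrane, the thin sheet on which epithelium and endothelium rest and which wraps muscle and fat cells. Laminins are cross-shaped proteins of the same sheet, each assembled from an alpha, a beta and a gamma chain. Most of these chains are made by fibroblasts, smooth muscle, epithelium and endothelium rather than by circulating white cells.

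On the control array, some probe sets of fibrillar collagens, type IV collagens and laminin alpha chains stood far above the foxes. These classes are named after their values were seen, and other probe sets of each were called lower. Most members stood below the foxes, as did most of all tested probe sets. By limma with Benjamini-Hochberg adjustment over all tested probe sets, 27 of 130 members (20.8%) were higher on the control at an adjusted p under 0.05, against 18.9% of all tested probe sets. A further 72 members (55.4%) were lower, against 42.1% of all, and 31 were not called. The share of higher members lay near the background. The median log2 difference, control minus fox, was 2.58 among the higher members and -0.82 among the lower ones, against 1.99 and -0.84 among all probe sets called in each direction. A difference of at least 1 was called in 23 higher members (17.7%, beside 15.5% of all) and 17 lower ones (13.1%, beside 12.1%). Of the members, 15 (11.5%) were called higher by at least 2 on the log2 scale, against 9.38% of all, and 0 were called lower by as much, against 0.853% of all; 1 uncalled COL14A1 probe set differed by -2.34. In RNA from a mixture of cells, more cells of a type and more RNA per cell cannot be told apart.

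The control lay above all 11 foxes in 27 members, against 21.9% of all tested probe sets, and below all 11 in 87, against 55.1%. Of the 87, 15 were not called by limma. The median difference over all members was -0.64, beside -0.46 over all tested probe sets. The count of lower members depended on scaling. After quantile normalization was applied again 47 (36.2%) remained, beside 29.5% of all tested probe sets, and after each array was centred on its median 46 (35.4%), beside 23.1%, while the same 27 members stayed higher in both cases and 1 more was called higher after centring. The comparison rests on 1 control array, so its p-values use the spread between foxes alone.

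**Figure D1:**
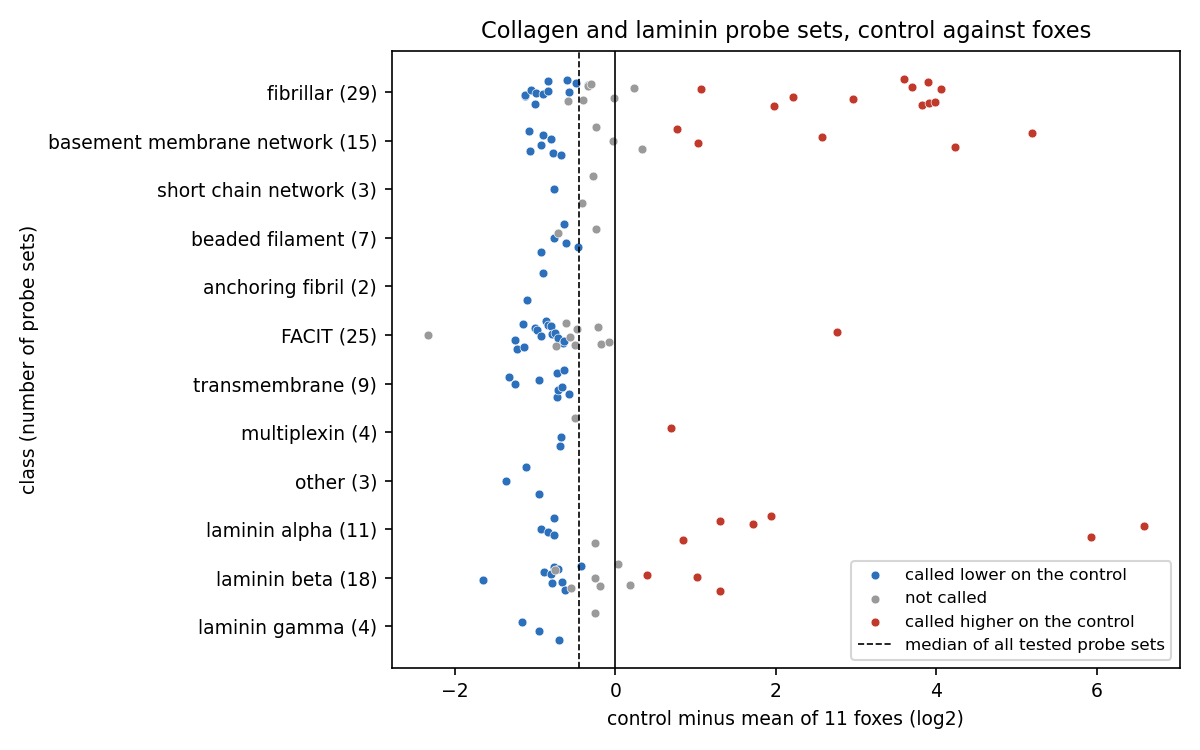
Control minus fox log2 difference of each member probe set (points), by collagen class and laminin chain (rows), coloured by the limma call at an adjusted p under 0.05, with the median of all tested probe sets as a dashed line. Points far to the right belong to the fibrillar and basement membrane network collagens, the laminin alpha chains and 1 FACIT probe set, and 1 uncalled COL14A1 probe set lies below -2.

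Counts by class are to be read beside all tested probe sets, of which 18.9% were higher and 42.1% lower. The 10 fibrillar genes had 29 probe sets, of which 11 (37.9%) were higher on the control, 12 (41.4%) were lower and 6 were not called. The higher fibrillar ones came from COL1A1, COL1A2, COL3A1, COL5A2 and COL27A1. None came from the cartilage chains COL2A1 and COL11A2, from COL5A1, COL5A3 or COL24A1. After centring of the arrays 11 were higher and 8 lower.

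COL1A1 and COL1A2 encode the chains of type I collagen, the main collagen of bone, skin and tendon. COL1A1 was read by 3 probe sets. On Cfa.100.1.S1_at the foxes ran from 3.98 through a median of 4.26 to 4.41 log2 units, and the control stood at 8.03. All foxes lay low and within a narrow band, and the control did not overlap them. The difference was 3.82 (SE 0.16, limma adjusted p = 6.78e-10). On Cfa.100.1.S1_s_at the order was turned, with foxes from 6.94 through 7.50 to 7.74 and the control at 6.31. That difference was -1.13 (limma adjusted p = 0.0022). The remaining Cfa.100.1.S2_at, differed by -0.34 (limma adjusted p = 0.0411), and this call was lost after either rescaling and without fox 3, 4, 5, 6 or 8.

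COL1A2 had 4 probe sets. Foxes ran from 4.66 through 4.93 to 5.39 on Cfa.1262.1.S1_s_at, against 9.03 on the control. The control lay clear of every fox, by a difference of 4.05 (SE 0.22, limma adjusted p = 1.03e-08). Differences of 2.96 and 2.22 on Cfa.1262.1.S2_at and Cfa.1262.1.S2_s_at went the same way. Cfa.12528.1.A1_at differed by -0.58 (limma adjusted p = 0.0262), a call that either rescaling ended.

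COL3A1, the single chain of type III collagen in vessel walls and hollow organs, is named because of its values, outside the rule for named genes. On Cfa.14626.1.S1_at the foxes spanned 4.68 to 5.70 with a median of 5.11, and the control stood at 9.12. On CfaAffx.22804.1.S1_s_at they spanned 5.90 to 6.41 with a median of 6.17, against 10.09. Both probe sets set the control apart from all foxes, by 3.98 (SE 0.28) and 3.90 (SE 0.19), with limma adjusted p-values of 1.83e-07 and 3.54e-09. Another, Cfa.14626.3.S1_at, differed by 1.07. The other two, Cfa.14626.2.S1_s_at and Cfa.3093.1.A1_at, differed by -0.34 and 0.23 and were not called.

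COL5A2 encodes a chain of type V collagen, which regulates the width of type I fibres. Its Cfa.3366.1.A1_at read at most 4.29 in the foxes, with a median of 4.12 and a lowest value of 4.0, and 7.84 on the control. The foxes were close together and far from the control, and the difference was 3.70 (SE 0.13, limma adjusted p = 1.70e-10). Its other probe set differed by 1.97. In contrast 3 of 4 COL5A1 probe sets were lower, by -0.99, -0.84 and -0.83.

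COL27A1, a fibrillar collagen of cartilage and other tissues, behaved unlike the rest. On Cfa.12434.1.A1_at the foxes already read 10.01 to 12.61, with a median of 10.80, and the control read 15.04. Foxes differed widely among themselves, yet the control was above all of them, by 3.90 (SE 0.77, limma adjusted p = 0.00123). CfaAffx.5916.1.S1_s_at ran from 6.36 to 7.76 in the foxes against 10.40 on the control, a difference of 3.59. Of its other 3 probe sets, CfaAffx.5900.1.S1_s_at differed by -1.13 and Cfa.7986.1.A1_s_at by -0.61, both called lower, and Cfa.10642.1.A1_at by -0.30 without a call.

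**Figure D2:**
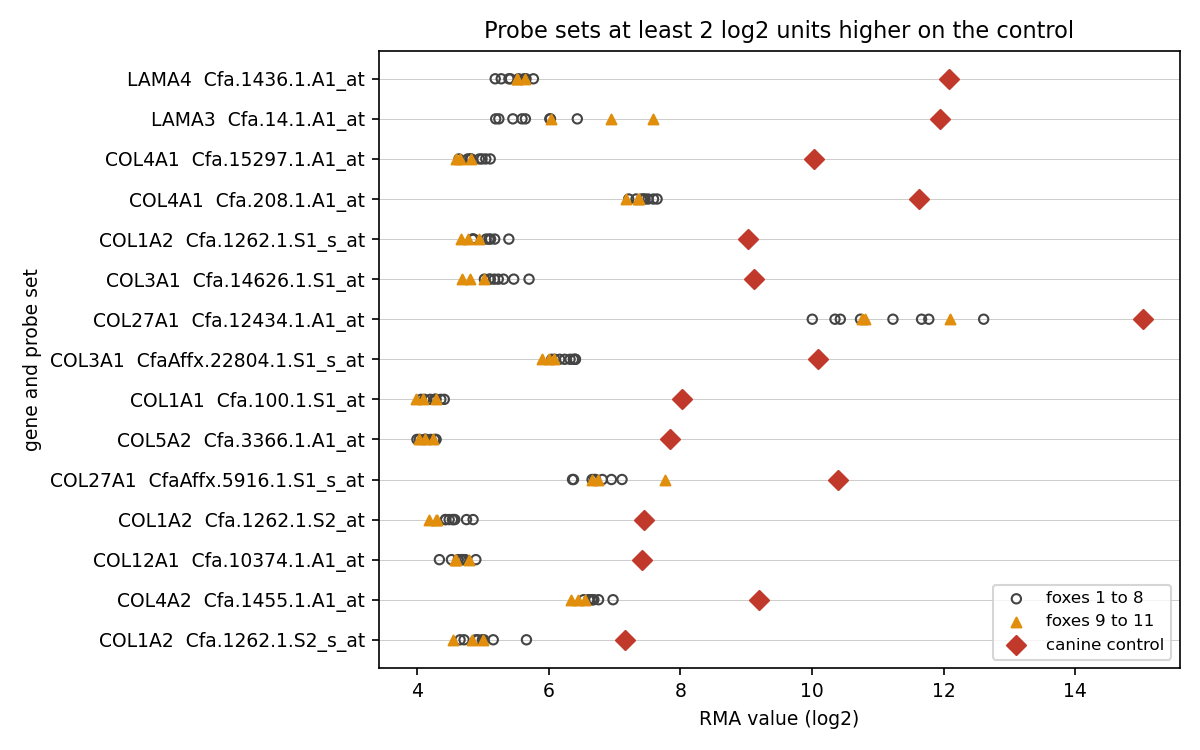
Log2 values of the 15 member probe sets higher by at least 2, with circles for foxes 1 to 8, triangles for foxes 9 to 11 and diamonds for the control. The control stands to the right of every fox in each row, and fox values scatter most for COL27A1 and LAMA3.

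The 6 genes of the basement membrane network had 15 probe sets, 5 higher (33.3%), 7 lower (46.7%) and 3 not called. All 3 probe sets of COL4A1, the most widely made type IV chain, were higher. Cfa.15297.1.A1_at read 4.59 to 5.11 in the foxes (median 4.82) and 10.03 on the control. Cfa.208.1.A1_at read 7.17 to 7.65 (median 7.41) and 11.63. No fox came near the control on either, with differences of 5.19 (SE 0.19) and 4.23 (SE 0.16) and limma adjusted p-values of 1.78e-10 and 3.99e-10. The remaining one, CfaAffx.10085.1.S1_s_at, differed by 0.77 (limma adjusted p = 0.00146).

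COL4A2, the partner chain of COL4A1, was read by 2 probe sets that went opposite ways. Cfa.1455.1.A1_at ran from 6.33 through 6.62 to 6.98 in the foxes against 9.20 on the control, a difference of 2.58 (SE 0.18, limma adjusted p = 1.60e-07). CfaAffx.10091.1.S1_s_at ran from 6.78 through 7.03 to 7.22 against 6.34, a difference of -0.68 (limma adjusted p = 0.00372), and either rescaling ended this call. On both probe sets the control lay outside the foxes.

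COL4A3, COL4A4 and COL4A5, chains of the basement membranes of the kidney filter, lung and other specialised sites, had 0 higher probe sets by limma, and 0 at an unadjusted p under 0.05. Of their 8 probe sets 5 were lower and 3 not called. COL4A4 was lower on 3 of 4, by -1.08, -1.07 and -0.93. COL4A6, another chain of such sites, was again read both ways, by 1.03 on Cfa.14646.1.A1_at and -0.81 on Cfa.3703.1.S1_s_at.

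FACIT collagens, many of which sit on the surface of fibres, had 25 probe sets over 8 genes: 1 higher (4.0%), 15 lower (60.0%) and 9 not called. Of all tested, 18.9% were higher and 42.1% lower. The higher FACIT probe set was Cfa.10374.1.A1_at of COL12A1, a collagen of tendon and dense connective tissue. Its foxes read 4.34 to 4.89 (median 4.66) and the control 7.41. The control was apart from all foxes by 2.77 (SE 0.17, limma adjusted p = 3.02e-08). The other 3 probe sets of COL12A1 differed by -0.74, -0.21 and -0.07 and were not called.

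COL14A1, which binds type I fibres, had 8 probe sets, 4 lower and 4 not called. Cfa.13059.1.A1_s_at read 9.23 to 10.51 in the foxes (median 9.67) and 8.45 on the control. It lay below every fox, with a difference of -1.15 (SE 0.36, limma adjusted p = 0.0161), and either rescaling ended the call. COL19A1, a minor collagen of basement membrane zones, was lower on both its probe sets, by -1.25 and -1.22. On CfaAffx.4714.1.S1_s_at its foxes read 6.51 to 7.06 and the control 5.54. Every probe set of COL16A1 and COL22A1, and the only probe sets of COL9A1 and COL21A1, were lower as well, by between -1.14 and -0.65.

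The 4 transmembrane collagens, which span the cell membrane, were lower on all 9 of their probe sets. Centring of the arrays left 5 of the 9 calls. COL25A1, a collagen of neurons, read 9.36 to 10.43 in the foxes on CfaAffx.17725.1.S1_at (median 9.80) and 8.45 on the control. The difference was -1.32 (SE 0.28, limma adjusted p = 0.00187), with the control below every fox. COL13A1, found at neuromuscular junctions and cell adhesions, read 8.26 to 8.96 (median 8.57) and 7.34 on CfaAffx.21586.1.S1_at. It differed by -1.25 (SE 0.24, limma adjusted p = 0.000982).

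The remaining collagen classes were small, and their counts stand beside 18.9% of all tested probe sets higher and 42.1% lower. COL26A1 was lower on all 3 probe sets, by as much as -1.36 (SE 0.31, limma adjusted p = 0.00315) on CfaAffx.21298.1.S1_at, where the foxes read 8.61 to 9.71 and the control 7.63. COL7A1, the anchoring fibril that ties epidermis to dermis, was lower on both its probe sets, by -1.10 and -0.91. The beaded filament chains of type VI collagen were lower on 5 of 7 probe sets, from COL6A3 and COL6A6, and neither probe set of COL6A1 was called. The short chain network collagens were lower on 1 of 3, that of COL8A2. COL15A1, a proteoglycan collagen near basement membranes, was lower on 2 of 4 probe sets, higher by 0.69 on CfaAffx.4658.1.S1_s_at, and not called on Cfa.12680.1.A1_at. None of the transmembrane, anchoring, beaded filament, short chain and COL26A1 probe sets was higher by limma, with 0 higher at an unadjusted p under 0.05.

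Laminin alpha chains, which carry the parts that bind cell receptors, had 11 probe sets over 4 genes. Of these 6 were higher (54.5%, beside 18.9% of all tested), 4 lower (36.4%, beside 42.1%) and 1 not called. LAMA4, the alpha chain of blood vessels, muscle and fat, had the largest difference of all members. On Cfa.1436.1.A1_at the foxes read 5.19 to 5.77 (median 5.52) and the control 12.09. The gap was 6.58 (SE 0.19, limma adjusted p = 2.07e-11), with no overlap. Both probe sets CfaAffx.6983.1.S1_at and CfaAffx.6983.1.S1_s_at were higher by 1.94 and 1.71. The last, Cfa.15124.1.S1_s_at, differed by -0.25 and was not called.

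LAMA3 encodes the alpha chain of epithelial laminins of skin, gut and glands. Its Cfa.14.1.A1_at read 5.19 to 7.58 in the foxes (median 6.02) and 11.95 on the control. Foxes were spread over a wide range and all lay below the control, by 5.93 (SE 0.70, limma adjusted p = 2.25e-05). Its other probe sets differed by 0.84 on CfaAffx.27826.1.S1_s_at and by -0.84 on CfaAffx.27831.1.S1_at, both called.

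LAMA1, a chain of the early embryo and of kidney tubules, differed by 1.30 (limma adjusted p = 1.00e-05) on Cfa.14195.1.A1_s_at, where foxes read 7.46 to 7.84 and the control 8.89. It was lower on both others, each by -0.76. LAMA5, the main alpha chain of adult epithelium, had 1 probe set, at 7.78 to 8.94 in the foxes (median 8.53) and 7.50 on the control. Its difference of -0.93 (SE 0.38) had a limma adjusted p of 0.0496, and leaving out any of foxes 1 to 8 ended the call.

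Beta and gamma chains are the shared partners of the alpha chains. The 18 beta probe sets comprised 3 higher (16.7%, beside 18.9% of all tested), 9 lower (50.0%, beside 42.1%) and 6 not called. LAMB1, the common beta chain, was read by 9 of them, with 2 higher, 3 lower and 4 not called. It was higher by 1.31 (SE 0.23, limma adjusted p = 5.71e-04) on Cfa.10910.1.A1_s_at, from 6.09 to 6.89 in the foxes to 7.64 on the control. It was lower by -1.64 (SE 0.38, limma adjusted p = 0.00316) on Cfa.18707.1.S1_at, from 5.48 to 6.52 in the foxes to 4.37 on the control, the largest called negative difference among the members. LAMB4 was higher by 0.40 (limma adjusted p = 0.031). LAMB2, LAMB3, LAMC1 and LAMC3 had 0 higher probe sets by limma, and 0 at an unadjusted p under 0.05. LAMC1, the common gamma chain, read 6.90 to 7.84 in the foxes on CfaAffx.20472.1.S1_s_at and 6.14 on the control, a difference of -1.17 (SE 0.29, limma adjusted p = 0.00476).

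Probe sets of 1 gene often disagreed. Of the 37 member genes with several probe sets, 9 (24.3%) had some called higher and some lower, against 11.6% of all genes with several. They were COL1A1, COL1A2, COL4A2, COL4A6, COL15A1, COL27A1, LAMA1, LAMA3 and LAMB1. The count fell to 5 after quantile normalization again (7.11% of all such genes) and to 6 after centring (7.18%), and COL1A1, COL4A6, COL27A1, LAMA3 and LAMB1 were among them both times. Of the 46 genes, 15 (32.6%) had at least 1 higher probe set, against 26.0% of all genes. When each gene was read by its probe set with the highest mean, 8 were higher and 30 lower, beside 18.5% and 44.6% of all genes. That reading takes a lower probe set for COL1A1, COL1A2 and COL4A2, and an uncalled one for COL3A1. COL6A1, COL10A1 and COL24A1 had no probe set called. A gene with more probe sets has more ways to show a higher one or calls in both directions. Members had 130 probe sets over 46 genes, and all genes had 29254 over 15115. Here and below, comparisons of genes by any probe set were not matched for this number.

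**Figure D3:**
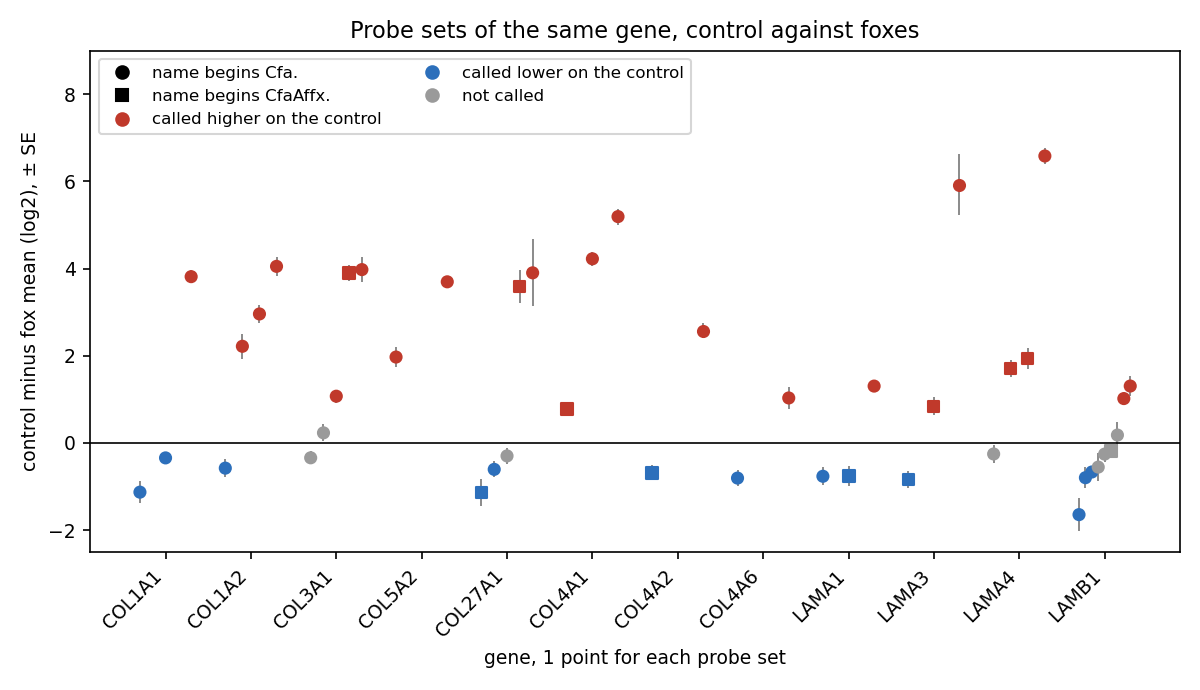
Control minus fox log2 difference, with its SE as a bar, of every probe set of 12 member genes that had a higher probe set, with the call as colour and the name prefix as marker shape. Within COL1A1, COL1A2, COL3A1, COL4A2, COL27A1, LAMA3 and LAMA4, 1 or more probe sets lie beyond 2 while 1 or more lie below 0.

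Counts of higher members are also given by how the probe sets are named. Array names begin with Cfa or with CfaAffx, and how the probes under each name were chosen was not in the sources used here. Of 62 members named Cfa, 19 were higher and 24 lower, and among all 19981 tested probe sets so named 5339 were higher and 6380 lower. Of 68 named CfaAffx, 8 were higher and 48 lower (70.6%), and among all 22943 so named 2753 were higher and 11711 lower (51.0%). For collagens 14 of 42 Cfa and 4 of 55 CfaAffx probe sets were higher, and for laminins 5 of 20 and 4 of 13. By name ending, 15 of 60 members ending in _at were higher (beside 18.1% of all with that ending), 12 of 66 ending in _s_at (beside 19.9%) and 0 of 3 ending in _x_at (beside 15.1%). The part of probe placement in these differences was not tested.

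Several members lie side by side in the Arctic fox annotation with 0 protein-coding genes between them. In the pairs COL4A1 with COL4A2 and COL3A1 with COL5A2, both genes had higher probe sets, and COL4A2 also had 1 lower. COL4A6 had 1 higher and 1 lower probe set beside COL4A5 with 0 higher and 1 lower. LAMB1 had 2 higher and 3 lower, and the only probe set of LAMB4 was higher, at low values (fox mean 3.74, control 4.14). Of all genes, 26.0% had at least 1 higher probe set. Neither COL4A3 and COL4A4 nor COL9A1 and COL19A1 had any higher probe set.

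Genes that make, bind or degrade these proteins did not all follow them. Each gene is read here by the probe set whose mean over the 12 arrays was highest. Read so, 18.5% of all genes were higher and 44.6% lower. Among 29 genes of collagen making and crosslinking, 3 were higher and 18 lower. P4HB, a subunit of the enzyme that hydroxylates prolines in collagen, read 7.23 to 9.63 in the foxes and 14.16 on the control, a difference of 5.68 (limma adjusted p = 9.28e-05). CRTAP, of the collagen prolyl 3-hydroxylation complex, was higher by 1.03, and PCOLCE, an enhancer of procollagen cleavage, differed by -1.16. Among 13 basement membrane partners 3 were higher and 7 lower, with SPARC, a collagen-binding protein, at 4.99, TINAG, of kidney tubule basement membrane, at 3.31, and SMOC2 at 2.13.

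Among 15 receptors, 4 were higher and 7 lower. The collagen-binding integrin chains ITGA2 and ITGA1 were higher, by 2.07 and 1.92, and the other collagen-binding chains, ITGA10 and ITGA11, were lower, by -1.07 and -1.10. GP6, the collagen receptor of platelets, differed by -1.26. Of 12 small leucine-rich proteoglycans, which decorate fibres, 3 were higher and 4 lower, with LUM at 4.03, DCN at 3.56 and OGN at 1.12. Other fibre proteins had 10 of 21 genes higher and 7 lower, with VTN at 5.93, EFEMP1 at 4.30 and EFEMP2 at 2.94. At least 1 higher probe set was found for 13 of these 21 (61.9%), beside 26.0% of all genes, and for 17.2% of the collagen making genes, 30.8% of the basement membrane partners, and 33.3% of both the receptors and the proteoglycans. Matrix-degrading enzymes and their inhibitors had 0 of 23 genes higher and 15 lower by limma, with 0 higher at an unadjusted p under 0.05, and 2 of the 23 (8.70%) had another probe set called higher. MMP9, a gelatinase of neutrophils, differed by -3.33, TIMP1, an inhibitor of such enzymes, by -3.68, and MMP17 by -1.31.

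Marker genes of cells that make matrix were split on the control array. Their counts stand beside 18.5% of all genes higher and 44.6% lower. Fibroblast markers had 3 of 8 genes higher (LUM, DCN and FBLN1), 2 lower (THY1 by -1.06 and PDGFRB by -0.66) and 3 not called. LUM and DCN are also counted among the small leucine-rich proteoglycans above, and FBLN1 among the other fibre proteins. The 3 not called, PDGFRA, FAP and TCF21, differed by -0.47, -0.25 and -0.26, and another FAP probe set by 2.42. The mean level of the 8 fibroblast markers, these matrix genes included, ran from 6.92 to 7.22 in the foxes and stood at 7.87 on the control. Smooth muscle markers had 3 of 7 higher and 3 lower, at 8.06 to 8.56 against 9.33, with ACTA2 different by 4.73, MYH11 by 3.20 and LMOD1 by -0.72. Simple epithelium had 3 of 5 higher and 2 lower, at 6.07 to 6.31 against 8.10, with EPCAM different by 7.20 and CLDN4 by -0.97. Endothelial markers had 2 of 8 higher and 4 lower, and their mean on the control (8.10) lay inside the range of the foxes (7.89 to 8.67). KDR and VWF differed by 2.29 and 1.62, and ROBO4, CDH5, CLDN5 and TEK by -1.56, -0.79, -0.71 and -0.48. Schwann cell markers had 1 of 3 higher, PMP22 by 4.26, and 2 lower, SOX10 by -1.21 and PRX by -0.55, at 8.02 to 9.09 against 9.50. Cartilage markers had 1 of 7 higher and 6 lower, and stratified epithelium 0 of 2 higher and 1 lower by limma (0 and 1 at an unadjusted p under 0.05). Counting any probe set, 4 of 8 fibroblast genes (50.0%) had a higher one and 3 a lower one. For smooth muscle these counts were 3 of 7 (42.9%) and 4, and for simple epithelium 3 of 5 (60.0%) and 2. For endothelium they were 3 of 8 (37.5%) and 4. Of all genes, 26.0% had a higher probe set.

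Markers of the labelled tissue, blood, had mean levels on the control below those of every fox. The counts of lower genes called by limma were not above the background for white cells and near it for platelets, since 44.6% of all genes were lower and 18.5% higher. White cell markers had 0 of 9 higher and 2 lower by limma (0 and 5 at an unadjusted p under 0.05). The mean of the white cell markers ran from 9.23 to 12.20 in the foxes against 7.70 on the control. The control lay below every fox in each of the 9 white cell and 6 platelet markers as read, against 55.1% of all tested probe sets. Some uncalled markers varied widely between foxes, with CORO1A different by -4.01 (SD 1.90) and LAPTM5 by -2.91 (SD 1.65). Platelet markers had 0 of 6 higher and 3 lower by limma (0 and 6 unadjusted), at 7.75 to 9.44 against 6.50. Red cell precursor markers had 1 of 4 higher, HEMGN by 3.32, and 3 lower, at 7.76 to 9.15 against 7.26. The part of these cell types in the member differences was not tested.

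Between foxes the members varied little. The SD over the 11 foxes was at least 0.5 in 4 of 130 probe sets (3.08%), against 14.8% of all tested. The median SD was 0.193, against 0.218 over all. These counts carry no test, since the labels put the foxes in no groups.

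COL14A1 had the widest range, on CfaAffx.2317.1.S1_s_at, from 7.09 in fox 3 through a median of 8.69 to 10.60 in fox 2 (SD 1.07, n = 11). The control stood at 6.18, below all foxes, yet the difference of -2.34 was not called (limma adjusted p = 0.0615). Without fox 1, 2 or 3 it passed the threshold. COL27A1 on Cfa.12434.1.A1_at was lowest in fox 1 (10.01) and highest in fox 2 (12.61), with an SD of 0.81 (n = 11). LAMA3 on Cfa.14.1.A1_at had an SD of 0.73 (n = 11). LAMB2, a beta chain of neuromuscular and kidney basement membranes, is named for its spread outside the rule, with an SD of 0.55 (n = 11) on Cfa.20623.1.S1_at. Below the threshold, the next genes by SD of their highest-mean probe set were COL6A1 (0.40) and LAMA5 (0.39).

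**Figure D4:**
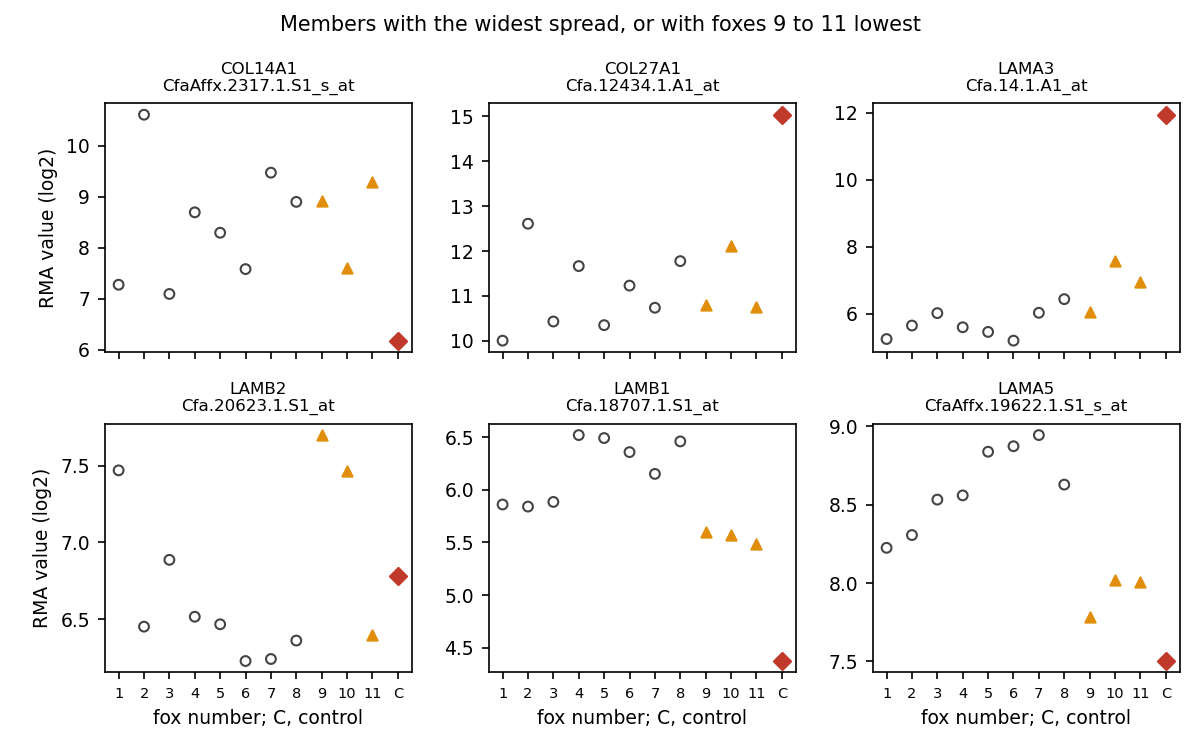
Log2 values on each array (circles for foxes 1 to 8, triangles for foxes 9 to 11, a diamond for the control) of the 4 member probe sets with an SD of at least 0.5, and of the LAMB1 and LAMA5 probe sets with the next largest SD among those in which foxes 9 to 11 all lay lowest. LAMA3 has its highest fox value in fox 10, and COL14A1 and COL27A1 in fox 2.

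Foxes 9, 10 and 11 stood apart from the other 8 on 2 of 5 control measures, each a probe set near the 3' end of a transcript minus one in its middle. For the Cfa GAPDH probe sets this difference lay between 2.56 and 3.19 on the first 8 arrays, between 0.42 and 1.08 on these 3, and at -0.08 on the control. For Cfa actin it lay between 2.14 and 5.21, between 0.16 and 0.26, and at 2.54. The control thus lay below every fox on Cfa GAPDH and among the first 8 on Cfa actin. On the other measures, Cfa EF1a and the GAPDH and actin probe sets named Cf, the last 3 foxes overlapped the first 8. The control lay below every fox on Cfa EF1a (1.99 against 2.41 to 3.73). It lay above every fox on Cf GAPDH (1.32 against -0.96 to -0.28) and among them on Cf actin (4.43). The median of all members was 6.69 to 6.78 on these 3 arrays and 6.80 to 6.99 on the first 8. The collagen median also lay apart, at 6.69 to 6.72 against 6.82 to 7.04. The laminin median overlapped, at 6.66 to 6.96 against 6.52 to 6.98. In 31 members (23.8%) all 3 lay below all 8 others, against 14.6% of all tested probe sets, and in 0 all lay above, against 12.6%. The lowest fox was 1 of these 3 in 95 members (73.1%, beside 47.3% of all), and the highest in 6 (4.62%, beside 28.6%). In 115 of 130 members (88.5%, beside 63.4% of all tested) the mean of foxes 9 to 11 was below that of foxes 1 to 8. The median difference was -0.20, beside -0.11 over all tested.

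LAMA5 read 8.22 to 8.94 in the first 8 foxes and 7.78 to 8.02 in the last 3, with no overlap. COL12A1 on CfaAffx.4940.1.S1_s_at read 5.31 to 5.99 and 4.99 to 5.04. LAMB1 on Cfa.18707.1.S1_at read 5.84 to 6.52 and 5.48 to 5.60. LAMA3 was split: on Cfa.14.1.A1_at the first 8 foxes read 5.19 to 6.43 and the last 3 read 6.04 to 7.58, with overlap. Its other probe sets ran the other way without overlap, at 7.61 to 8.10 against 7.39 to 7.50 on CfaAffx.27826.1.S1_s_at and at 7.01 to 7.37 against 6.78 to 6.96 on CfaAffx.27831.1.S1_at. Fox 10 was lowest of the foxes in 51 members (39.2%, beside 23.2% of all), and fox 2 highest in 43 (33.1%, beside 20.9%). The part of RNA quality in these member values was not tested. The same 27 members were higher on the control with or without these 3 foxes, and with these 3 alone.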

How the data were processed

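Per the submitters' processing notes, the authors made the deposited log2 values with RMA in Affymetrix Expression Console. Tool versions and joint or separate normalization of the 12 arrays are not stated in the sources used here. No detection calls were used, so low values carry no floor. Of 43035 probe sets, 111 control ones were set aside, and 42924 were tested, of which 29254 had 1 gene symbol, 439 several and 13231 none. The control was compared with the 11 foxes by limma 3.58.1 in R 4.3.3 (lmFit, eBayes; Benjamini-Hochberg over all tested; threshold 0.05), tested on simulated data. With 1 control array, an exact permutation test cannot go below 0.0833. No batch is labelled, nor that the samples are 11 animals, so p-values measure only the spread between these samples, which may be technical.

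Members and lists were chosen with earlier results of these data known. Named genes were the 12 with the largest difference among those called and outside all foxes, the 6 with the largest SD, the 3 with the highest fox mean (COL27A1, COL25A1 and COL14A1), genes read in both directions, and up to 3 per related list. Other genes given with values were chosen after these were seen. Alternatives were rescaling, a filter on low means, other limma settings, a minimum difference, the fox range, the mean of a gene's probe sets, other spread measures, and leaving out foxes. Comparing with foxes 9, 10 and 11 only was chosen after seeing the data.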

Additional observations from a re-analysis of the deposited data

How the results depend on the processing

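As deposited, 27 member probe sets were higher and 72 lower. With only probe sets whose mean lay above the median, 51 members were tested, 5 were higher (9.80%, beside 17.2% of all) and 38 lower (74.5%, beside 42.4%), 5 genes were higher, and the median member difference was -0.79. Quantile normalization again gave 47 lower members and a median of -0.44, and centring gave 46 and -0.37. Whether genes were read in both directions also moved with scaling, from 9 genes to 5 and 6. An absolute difference of at least 1 left 17 lower members and 11 lower genes. Against foxes 9, 10 and 11 only, the median was -0.48. Leaving out each fox in turn gave 27 higher and 70 to 80 lower members. For the spread between foxes, the filter on low means left 2 of the 51 members tested, beside 25.6% of all probe sets it kept. Leaving out foxes 9, 10 and 11 left 2 of 130 members, beside 6.996% of all tested. An SD of at least 1 left 1 member, beside 3.003% of all tested. Of 1340 values recomputed for 73 named probe sets, 1238 kept direction and call, 72 lost the call, 30 gained it and 0 changed direction. Low values cannot be told from background here, which limits probe sets near the bottom of the scale. No paired analysis was possible because the control group has 1 array.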
